A study of Mus musculus with 8 samples.

Results

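Ano3, Gria3, Inka2, Dglucy and Dcxr are 5 genes that stood at least 1.3 higher on the log2(TPM + 1) scale in Rps19bp1 knockout ventricles than in control ventricles, and that have no settled role in the embryonic heart. TPM (transcripts per 1e6) is a level corrected for the length of the transcript, with every library adding up to one common total. The 5 genes were picked from 52778 rows of the expression table because of this difference, so the difference is described here and carries no test. Of 15541 rows with a mean of at least 1 TPM over all libraries, 16 reached 1.3, which is 0.103% of them, and these 5 genes are among the 16. All 5 passed that minimum, but Ano3 passed it through the knockout libraries, since its control mean was below 1 TPM.

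RNA was sequenced from the ventricles of mouse embryos at embryonic day 11.5, with 4 libraries from conditional knockout embryos (cKO) and 4 from control embryos. The cKO embryos are Rps19bp1 fl/fl; Xmlc2-Cre +/−, so the floxed alleles are removed by a Cre active in cardiomyocytes, while the other cell types of the ventricle keep the gene. The labels do not give the alleles of the control embryos, and their genotype field reads C57BL/6 WT for all 8 libraries, cKO included. The labels call the libraries biological replicates and give 1 batch. They also contradict each other, since the extraction text names cultured cortical neurons and removal of ribosomal RNA, and the series text names dissected ventricles and an mRNA kit.

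The 5 genes encode proteins of unrelated families. Ano3 encodes anoctamin 3, a membrane protein of the TMEM16 family of chloride channels and lipid scramblases, best known from the brain and from inherited dystonia. Gria3 encodes GluA3, a subunit of the AMPA receptor, the ion channel through which glutamate drives fast excitation at synapses. Inka2 encodes an inhibitor of the p21-activated kinase Pak4, which acts on the actin cytoskeleton, and its human counterpart is a described target of the transcription factor p53. Dglucy encodes D-glutamate cyclase, a mitochondrial enzyme that turns D-glutamate into 5-oxo-D-proline and was described from mouse heart mitochondria. Dcxr encodes dicarbonyl and L-xylulose reductase, an enzyme of the uronate cycle that is abundant in kidney and liver.

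The genes lie on 5 different chromosomes, with positions on GRCm38. Ano3 spans chr2:110655201-110950391 on the minus strand, Gria3 chrX:41400819-41678601 on the plus strand and Inka2 chr3:105704599-105720842 on the plus strand. Dglucy spans chr12:100779057-100872610 on the plus strand and Dcxr chr11:120724546-120727284 on the minus strand. All 5 are protein-coding in GENCODE M21, with 3 annotated transcripts for Ano3, 9 for Gria3, 2 for Inka2, 9 for Dglucy and 4 for Dcxr. The table gives 1 value a gene, so transcripts of a gene were not separated.

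Because these genes were higher together, the 250 bases before their annotated starts were searched for the p53 response element decamer and for TATAAA (the TATA box), for CCAAT, for GGGCGG (the GC box) and for CACGTG (an E-box) on both strands. RefSeq windows of GRCm38.p6 were matched for 4 of the 5 genes, and Gria3 was not matched. They are shown to let the 4 genes be compared, from 5′ to 3′ on the gene's strand, with every match in capitals. The windows are chr3:105704349-105704598 and chr3:105705208-105705457 (plus strand) for the first and the second start of Inka2, the latter inside the first intron of the longer transcript. For Dglucy the window is chr12:100778807-100779056 (plus strand), for Dcxr chr11:120727285-120727534 (minus strand), and for the second start of Ano3, inside the gene, chr2:110840060-110840309 (minus strand).
Inka2, first start: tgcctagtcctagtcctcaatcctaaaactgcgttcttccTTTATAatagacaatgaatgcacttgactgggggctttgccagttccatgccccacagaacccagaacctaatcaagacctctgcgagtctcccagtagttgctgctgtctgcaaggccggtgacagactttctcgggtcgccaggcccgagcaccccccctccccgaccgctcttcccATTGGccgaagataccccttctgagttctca
Inka2, second start: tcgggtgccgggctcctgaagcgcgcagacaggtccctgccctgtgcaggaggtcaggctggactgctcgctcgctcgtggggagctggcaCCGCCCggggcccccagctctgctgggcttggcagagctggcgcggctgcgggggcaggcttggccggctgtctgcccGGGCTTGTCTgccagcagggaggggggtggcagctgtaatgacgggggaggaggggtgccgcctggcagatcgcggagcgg
Dglucy: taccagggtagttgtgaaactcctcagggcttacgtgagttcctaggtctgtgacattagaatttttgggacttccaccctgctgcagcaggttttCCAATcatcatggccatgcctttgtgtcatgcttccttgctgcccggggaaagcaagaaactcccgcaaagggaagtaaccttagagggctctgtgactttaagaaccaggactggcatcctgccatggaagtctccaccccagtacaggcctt
Dcxr: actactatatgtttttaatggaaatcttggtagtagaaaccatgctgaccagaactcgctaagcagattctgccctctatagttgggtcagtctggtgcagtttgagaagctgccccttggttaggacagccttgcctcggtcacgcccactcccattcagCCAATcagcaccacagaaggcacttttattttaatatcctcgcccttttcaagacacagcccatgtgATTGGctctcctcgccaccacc
Ano3, second start: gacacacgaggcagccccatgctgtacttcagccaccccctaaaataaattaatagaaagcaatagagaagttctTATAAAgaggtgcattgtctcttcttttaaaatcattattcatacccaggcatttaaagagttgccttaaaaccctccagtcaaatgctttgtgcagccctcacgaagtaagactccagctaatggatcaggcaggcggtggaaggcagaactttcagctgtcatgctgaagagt
The p53 half-site decamer was matched in 1 of these windows, at the second Inka2 start (GGGCTTGTCT, 81 to 72 bases before the start). This window also holds GGGCGG on the other strand. Of 32851 windows of the same length, 7.13% hold the decamer and 32.7% hold GGGCGG. The letters CCAAT were matched once at the first Inka2 start and once in Dglucy, and on both strands in Dcxr, at 89 to 85 and 22 to 18 bases before the start; 33.8% of all windows hold it. TATAAA was matched at the first Inka2 start, 210 to 205 bases before it on the other strand, and at the second Ano3 start, 175 to 170 bases before it, against 12.4% of all windows. CACGTG lies 173 to 168 bases before the first Ano3 start, in a window that overlaps an annotated exon and is not printed, and 6.02% of all windows hold it. No matches overlapped each other, and no motif was found in all 5 printed windows. The GC content was 73.6% at the second Inka2 start and between 43.6% and 54.8% in the other printed windows, beside a median of 52.4% over all windows.

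The targeted gene was checked first. Rps19bp1 stood between 11.8 and 19.2 TPM in the cKO libraries and between 34.7 and 44.2 TPM in control libraries, so it fell by 1.37 on the log2 scale (n = 4 per group, SE 0.127, adjusted p by limma 0.000508). Across all tested rows 994 had a limma adjusted p under 0.05 (6.4%), 336 of them higher in cKO (2.16%) and 658 lower (4.23%). Rescaling each library without mitochondrial and globin genes made this 388 higher and 396 lower, and quantile normalization 384 and 380. With the replicate number as a block the counts were 179 and 241. Leaving out any single library other than cKO replicate 4 moved at least 1 of the counts by over 1.5 times, down to 153 higher and 228 lower, so these percentages hold for the fit with all 8 libraries. The sequencing depth behind a TPM value is unknown, so precision is given as the spread between libraries. In a bulk sample, fewer cells of a type and less RNA per cell cannot be told apart.

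Ano3 had the widest difference in proportion and the lowest starting level. It stood at 6.004, 5.66, 7.57 and 4.97 TPM in cKO replicates 1 to 4 and at 0.638, 0.735, 0.469 and 0.290 TPM in control replicates 1 to 4. The groups lay far apart, with the lowest cKO library 6.76 times the highest control library. The means were 6.05 ± 1.1 and 0.533 ± 0.196 TPM (SD, n = 4), 11.4 times apart, and the difference was 2.198 on the log2(TPM + 1) scale. In control ventricles Ano3 was therefore below 1 TPM in all 4 libraries, and in cKO ventricles above 4 TPM in all 4.

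Gria3 was the most abundant of the 5 in both groups. It stood at 22.7, 20.1, 26.1 and 18.4 TPM in cKO replicates 1 to 4 and at 6.56, 7.98, 7.86 and 7.78 TPM in control replicates 1 to 4. The lowest cKO library was 2.31 times the highest control library, and control replicate 1 lay below the other control libraries. The means were 21.8 ± 3.36 and 7.55 ± 0.662 TPM (SD, n = 4), a ratio of 2.89 and a log2 difference of 1.41.

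Inka2 had the smallest spread of the 5 genes among cKO libraries (SD 6.71% of the mean). It stood at 11.2, 12.1, 12.5 and 10.8 TPM in cKO replicates 1 to 4 and at 3.87, 4.04, 4.22 and 3.67 TPM in control replicates 1 to 4. Neither group spread far, and the highest cKO library was only 1.16 times the lowest. The means were 11.6 ± 0.781 and 3.95 ± 0.234 TPM (SD, n = 4), a ratio of 2.95 and a log2 difference of 1.35.

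The enzyme genes Dglucy and Dcxr were both low in control. Dglucy stood at 10.3, 6.64, 12.98 and 7.22 TPM in cKO replicates 1 to 4 and at 1.64, 1.87, 2.16 and 2.13 TPM in control replicates 1 to 4. Its cKO libraries split into a higher pair (replicates 1 and 3) and a lower pair (replicates 2 and 4), with the highest 1.95 times the lowest, the widest spread of the 5 genes. Its means were 9.27 ± 2.93 and 1.95 ± 0.243 TPM (SD, n = 4), a ratio of 4.75 and a log2 difference of 1.76. Dcxr stood at 9.93, 8.36, 11.98 and 9.15 TPM in cKO replicates 1 to 4 and at 2.96, 2.73, 2.69 and 2.60 TPM in control replicates 1 to 4. Its groups were again apart, with the lowest cKO library 2.82 times the highest control library. The Dcxr means were 9.85 ± 1.55 and 2.74 ± 0.157 TPM (SD, n = 4), a ratio of 3.59 and a log2 difference of 1.53.

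**Figure D1:**
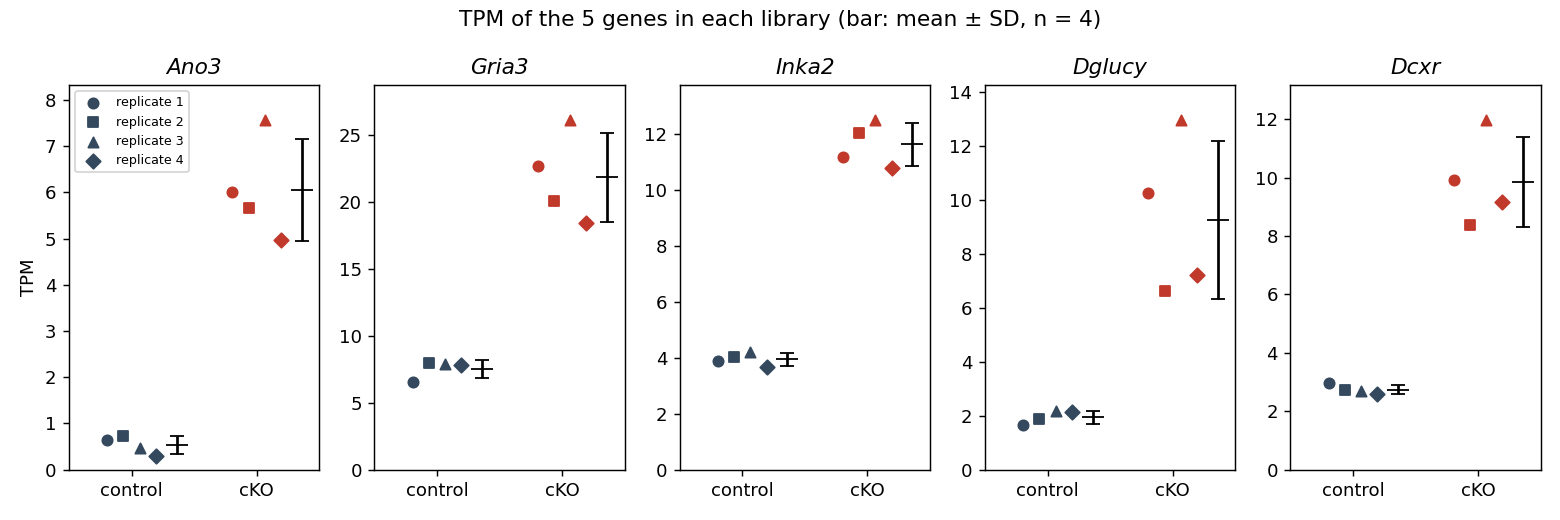
TPM (vertical axes, each from 0) of Ano3, Gria3, Inka2, Dglucy and Dcxr in 4 control and 4 cKO libraries; each point is a library, its shape gives the replicate number, and the bar is the mean ± SD. All cKO points lie above all control points in every panel, and cKO replicate 3 (triangle) is the highest point of each panel.

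All 5 genes had every cKO library above every control library. Over all tested rows this holds for 5.33%, and since these genes were chosen for the difference, nothing is read from it. The size of the difference depends on the constant added before the logarithm: with 5 in place of 1 the 5 differences lay between 0.89 (Inka2) and 1.09 (Gria3), and with 0.1 that of Ano3 was 3.32. Just inside the limit of 1.3 lay Inka2, Gria3, Prrg4 (1.41) and the pseudogene Rps19-ps6 (1.303). Just outside lay Podn (1.28), E130102H24Rik (1.27), Ccng1 (1.27) and Pvt1 (1.22).

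The order of the levels was Ano3, Dglucy, Dcxr, Inka2 and Gria3 from lowest to highest mean TPM in both groups. In control libraries no neighbours in this order overlapped. In cKO libraries the ranges of Ano3 and Dglucy, of Dglucy and Dcxr, and of Dcxr and Inka2 overlapped, and Dcxr was above Dglucy in 2 of 4 libraries. Gria3 stayed apart from Inka2, with its lowest cKO library at 18.4 TPM against 12.5 TPM for the highest Inka2 library.

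The cKO libraries kept a similar order across the genes. cKO replicate 3 held the highest value for 5 of 5 genes, and cKO replicate 1 the next highest for 4 of 5, the exception being Inka2. The lowest value was in cKO replicate 4 for Ano3, Gria3 and Inka2 and in cKO replicate 2 for Dglucy and Dcxr. Relative to the control mean, Ano3 was 14.2 times higher in cKO replicate 3 and 9.32 times in cKO replicate 4, Gria3 3.46 and 2.44 times, and Dglucy 6.65 and 3.70 times. Remaining Rps19bp1 was 15.2, 11.8, 13.7 and 19.2 TPM in cKO replicates 1 to 4, highest in replicate 4. Mitochondrially encoded transcripts took 16.2% of TPM in cKO replicate 3, 13.2% in replicates 1 and 2 and 14.1% in replicate 4, against 11.4% to 12.2% in control. Their part in the order of the libraries was not tested. Without cKO replicate 3 the differences were 2.10 for Ano3, 1.32 for Gria3, 1.32 for Inka2, 1.598 for Dglucy and 1.44 for Dcxr.

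**Figure D2:**
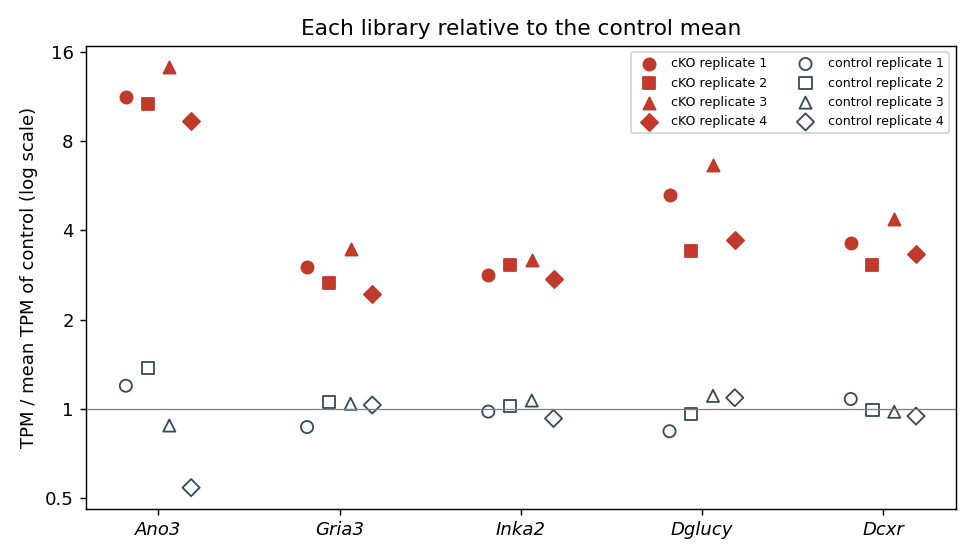
TPM of each library divided by the mean TPM of the 4 control libraries (vertical log axis) for the 5 genes; filled points are cKO libraries, open points control libraries, and the shape gives the replicate number. The Ano3 points of cKO lie between 9.32 and 14.2 times the control mean, and its control points are the most scattered.

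A list of 35 widely cited p53 targets, none of them among the 5 genes, was set beside them. p53 is a transcription factor that is stabilised when cells are stressed and that raises genes of cell cycle arrest and cell death. Of its 33 tested genes 23 rose and 0 fell by limma's test, against 2.16% of tested rows that rose, and their median log2 difference was 0.56 beside -0.02 over all tested rows. This list had been seen to be higher in these libraries before, so it is no independent evidence. Eda2r rose by 2.38 (limma adjusted p = 3.9e-06), Pmaip1 by 1.66 (limma adjusted p = 0.000188) and Sesn2 by 1.22 (limma adjusted p = 4.34e-05). The mean log2(TPM + 1) of the tested p53 targets was 4.88, 4.79, 4.90 and 4.72 in cKO replicates 1 to 4. These 4 libraries thus had the same order as for Ano3 and Gria3, with replicate 3 highest and replicate 4 lowest. An order of 4 libraries is a coarse measure. With each group's mean taken off, Pearson's r with the p53 target mean over the 8 libraries was 0.839 for Dglucy and 0.822 for Gria3. It was 0.542 for Dcxr, 0.316 for Ano3 and 0.221 for Inka2, and these values were not tested.

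Genes with the most similar pattern were looked up by Pearson's r of log2(TPM + 1) over the 8 libraries, which mostly reflects the difference between groups. The closest to Ano3 were Pik3r3, Mgmt, Pmaip1, Trp53inp1 and Ddit4l, with r between 0.992 and 0.994. The closest to Gria3 were Cgref1, Tnfrsf10b, Cox6b2, Trp53inp1 and Adamts12, with r between 0.990 and 0.993. For Inka2 they were Mme, Trp53cor1, Eda2r, Ccng1 and Trp53inp1 (0.990 to 0.995), and for Dcxr Eda2r, Tmem150a, Igsf9b, Trp53inp1 and Ccnd2 (0.993 to 0.995). Dglucy had another set, Podn, Rec8, Serpine2, Ogn and Fbn1 (0.988 to 0.995), in which Serpine2, Ogn, Podn and Fbn1 encode secreted or matrix proteins. Trp53inp1 (37.02 ± 3.27 TPM in cKO and 12.8 ± 0.634 in control, SD, n = 4) was among the 5 closest genes for 4 of the 5, Dglucy being the exception. This ranking rests on the difference that chose the genes. With the group means taken off, Dglucy had the highest r of the 5 with the p53 target mean, 0.839.

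Taking each library's deviation from its group mean removes the difference between groups. By that measure, over the same 8 libraries, Dglucy lay closest to Rec8 (r = 0.982), Angptl8 (0.981) and Ogn (0.965), so Rec8 and Ogn were near it by both measures. Rec8, a meiotic cohesin subunit, held 73.5, 51.2, 83.9 and 52.02 TPM in cKO replicates 1 to 4, the same higher and lower pairs as Dglucy. Gria3 lay closest to Nppa (0.982), which encodes atrial natriuretic peptide, then to Pfkfb2 (0.979) and Lyz2 (0.978). Ano3 lay closest to D6Wsu163e, Arrdc4 and Ddx60 (0.942 to 0.946), Inka2 to Lime1, Gpr107 and Ctrl (0.955 to 0.976) and Dcxr to Cyyr1, Ctsk and Tspyl4 (0.974 to 0.984). They were picked as the highest values of r over 8 libraries and are given as a description.

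Gria3 was the one AMPA receptor subunit gene above the minimum of 1 TPM. Gria1 stood between 0.446 and 0.745 TPM in cKO and between 0.456 and 0.805 in control. Gria2, whose subunit makes the receptor impermeable to calcium, stood between 0.0597 and 0.211 TPM in cKO and between 0.0517 and 0.188 in control, and Gria4 between 0.239 and 0.440 and between 0.136 and 0.413. The ranges of cKO and control overlapped for each of these 3 paralogs. The other subunit genes therefore remained below 1 TPM in all 8 libraries while Gria3 stood at 18.4 TPM or more in cKO.

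Of 25 partners of Gria3 fixed as a list (the 3 other subunits, auxiliary subunits, scaffolds and an RNA editing enzyme), 12 were tested, 1 rose and 0 fell by limma's test, and 7 had an unadjusted p under 0.05. The 1 call is 8.33% of the tested partners, against 6.4% of all tested rows. The median log2 difference of the tested partners was 0.01. Cpt1c, a brain carnitine palmitoyltransferase relative that binds AMPA receptors, held 19.1, 16.3, 19.4 and 15.8 TPM in cKO and 9.51, 8.55, 10.4 and 11.3 TPM in control replicates 1 to 4. It rose by 0.77 (SE 0.0956, limma adjusted p = 0.00279), with every cKO library above every control library. Gsg1l, an auxiliary subunit, had lower values in all 4 cKO libraries (17.7 ± 3.26 against 23.6 ± 1.74 TPM, SD, n = 4) but a limma adjusted p of 0.0631. Without cKO replicate 4 it passed, at -0.48 (limma adjusted p = 0.0462). The most abundant partners were Pick1, with a difference of 0.01, Gripap1 (-0.08) and Gsg1l. Of 22 NMDA, kainate, delta and metabotropic glutamate receptor genes, 4 were tested and 0 passed limma's test, with 0 at an unadjusted p under 0.05. The kainate subunit gene Grik5 (34.9 ± 6.29 and 41.4 ± 3.96 TPM, SD, n = 4) was the most abundant of them, followed by Grin3b (1.42 and 1.28 TPM) and Grin3a (1.37 and 1.29 TPM).

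**Figure D3:**
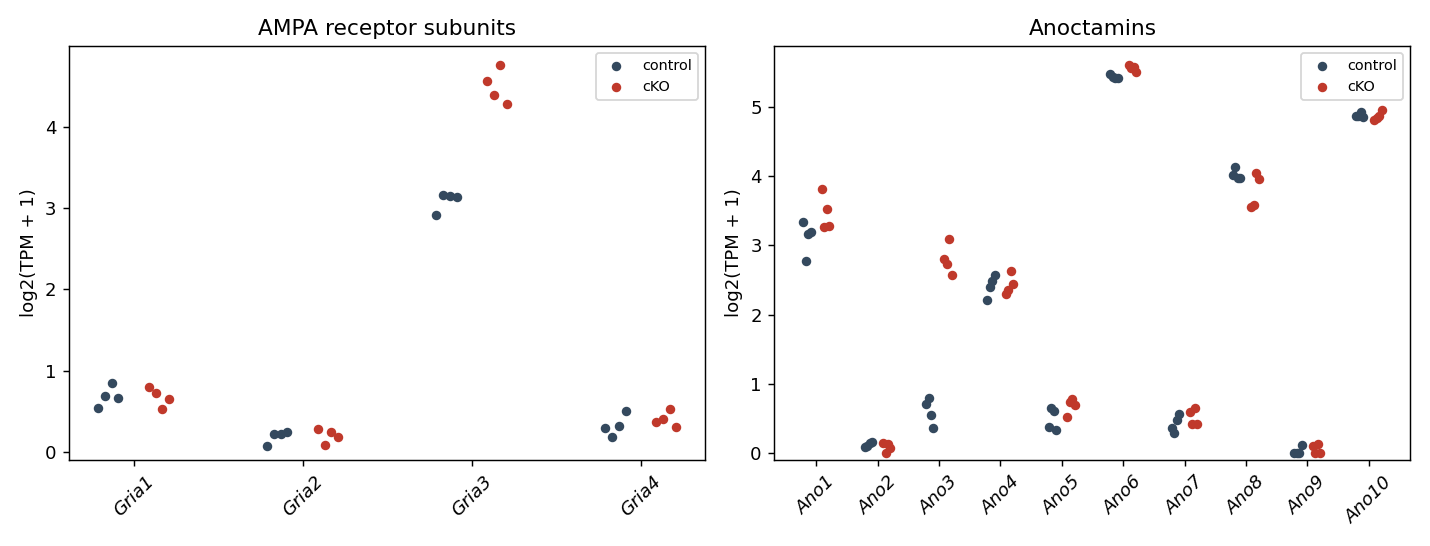
log2(TPM + 1) (vertical axis) of the 4 AMPA receptor subunit genes (left) and the 10 anoctamin genes (right) in 4 control and 4 cKO libraries, each point a library. Gria3 and Ano3 are the genes whose control and cKO points are far apart; Gria1, Gria2 and Gria4 lie below 1 TPM in every library.

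Among the anoctamins, 5 of the 9 other genes were tested. By limma's test 0 passed in either direction, against 6.4% of all tested rows, with 2 at an unadjusted p under 0.05. Ano6, a scramblase of many cell types and the most abundant anoctamin here, held 47.6, 46.5, 46.7 and 44.5 TPM in cKO and 43.7, 42.1, 41.7 and 41.7 TPM in control replicates 1 to 4. All cKO libraries were higher, by 0.13 on the log2 scale (limma adjusted p = 0.109), and after quantile normalization the difference was 0.18 (limma adjusted p = 0.0442). Ano10 (28.2 and 28.5 TPM) and Ano8 (12.96 and 15.2 TPM, difference -0.23, limma adjusted p = 0.241) came next. The calcium-activated chloride channel gene Ano1 stood at 10.2 ± 2.06 and 7.76 ± 1.38 TPM (SD, n = 4, limma adjusted p = 0.173), with overlapping groups. Ano2, Ano5, Ano7 and Ano9 were below the minimum, the highest of their means being 0.511 TPM. In control ventricles Ano3 was among these low anoctamins, and in cKO ventricles its mean of 6.05 TPM was above that of Ano4 (4.41 TPM).

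Inka2 was compared with its paralog and with the kinases around it. Inka1, the other gene of the family, was more abundant, at 33.4, 32.4, 32.1 and 34.6 TPM in cKO and 25.8, 27.7, 31.4 and 31.4 TPM in control replicates 1 to 4. All cKO libraries were higher, but by only 0.19 (limma adjusted p = 0.137). Pak4, the kinase that Inka proteins inhibit, stood at 31.7 ± 1.122 and 35.2 ± 1.37 TPM (SD, n = 4), a difference of -0.15 (limma adjusted p = 0.106). Of 20 genes on this list 19 were tested, 0 rose and 1 fell by limma's test, and 5 had an unadjusted p under 0.05. The 1 call is 5.26% of the 19, against 6.4% of all tested rows. The gene that fell was Rac1, a small GTPase that activates p21-activated kinases, with 224 ± 11.2 TPM in cKO and 267 ± 12.8 in control (SD, n = 4, difference -0.25, limma adjusted p = 0.0259). The Rac1 call was lost when cKO replicate 1, 2 or 3 or control replicate 1 or 3 was left out, with limma adjusted p between 0.0537 and 0.0764. The most abundant genes of the list were Cfl1 (1262 and 1350 TPM, difference -0.10), which encodes the actin-severing protein cofilin, Cdc42 (308 and 307 TPM, difference 0.01) and Rac1.

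Dglucy was set beside 18 genes of D-amino acid, glutamate and glutathione metabolism. Of 16 tested, 0 rose and 1 fell by limma's test, and 4 had an unadjusted p under 0.05. The 1 call is 6.25% of the 16, against 6.4% of all tested rows. The gene that fell was Gclc, the catalytic subunit of the first enzyme of glutathione synthesis, with 13.6 ± 0.856 TPM in cKO and 18.5 ± 2.37 in control (SD, n = 4, difference -0.41, limma adjusted p = 0.0274). Its call was lost without cKO replicate 1, 2 or 3 or control replicate 1 or 2 (limma adjusted p between 0.0501 and 0.0699). Ddo, which breaks down D-aspartate and D-glutamate, stood at 10.2 ± 2.23 and 8.37 ± 0.591 TPM (SD, n = 4, limma adjusted p = 0.282). Oplah, the 5-oxoprolinase that acts on the L form of the product, stood at 14.8 and 14.1 TPM (difference 0.07, limma adjusted p = 0.669). Got2 (321 and 334 TPM), Got1 (152 and 155 TPM) and Glud1 (86.8 and 102 TPM) were the most abundant, with differences of -0.06, -0.03 and -0.24. Glul, glutamine synthetase, was higher in every cKO library, with a difference of 0.20 and a limma adjusted p of 0.05000489. Leaving out cKO replicate 4 brought Glul (0.24, limma adjusted p = 0.0325), Glud1 (-0.28, 0.0399) and Gclm (-0.49, 0.0496) past the threshold.

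Dcxr was set beside 20 genes of the uronate, polyol and pentose pathways, of which 16 were tested. By limma's test 0 passed in either direction, with 4 at an unadjusted p under 0.05, and the median difference was -0.04. None of the enzymes around Dcxr passed. Cryl1, which works upstream of L-xylulose in the uronate cycle, stood at 9.10 ± 0.744 and 8.57 ± 0.606 TPM (SD, n = 4, limma adjusted p = 0.6003), Sord at 48.6 and 52.3 TPM (limma adjusted p = 0.248) and Xylb at 1.54 and 1.99 TPM (limma adjusted p = 0.294). The most abundant were Akr1a1 (508 and 506 TPM), Pgls (173 and 173 TPM) and Taldo1 (136 and 153 TPM). Without cKO replicate 2, Pgd passed at -0.20 (limma adjusted p = 0.0412).

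Of 24 carbonyl reductases and other short-chain dehydrogenases, the enzyme superfamily of Dcxr, 21 were tested, 1 rose and 1 fell by limma's test. Together these are 9.52% of the 21, against 6.4% of all tested rows. Bdh1, a mitochondrial ketone body enzyme, fell from 13.1 ± 0.816 to 9.84 ± 0.518 TPM (SD, n = 4, difference -0.38, limma adjusted p = 0.0121). Hpgd, which inactivates prostaglandins, rose from 13.7 ± 0.880 to 17.3 ± 1.22 TPM (SD, n = 4, difference 0.32, limma adjusted p = 0.0281), a call lost without cKO replicate 1 or 3 or control replicate 1, 3 or 4 (limma adjusted p between 0.0634 and 0.0782). With the replicate number as a block Hpgd had a limma adjusted p of 0.0734 and Rac1 of 0.0712. Cbr2, a carbonyl reductase, was below the minimum, with 0 TPM listed in 3 cKO libraries. The most abundant genes were Hsd17b10 (139 and 139 TPM), Hsd17b4 (68.7 and 76.3 TPM) and Dhrs1 (44.7 and 48.9 TPM), none past the threshold.

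**Figure D4:**
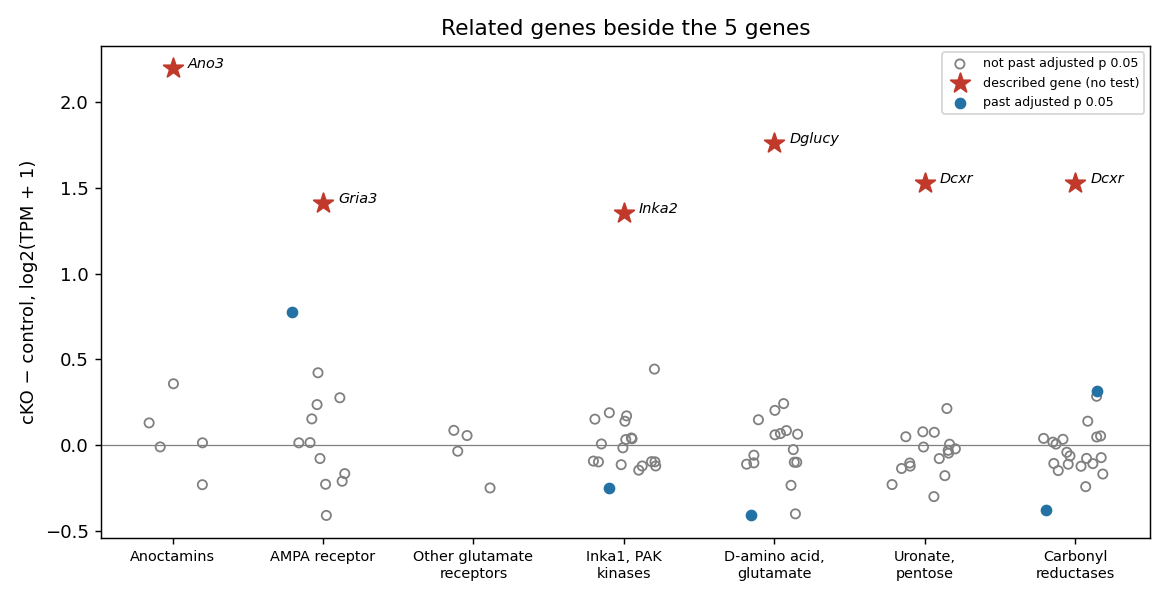
Difference between cKO and control means of log2(TPM + 1) (vertical axis) for the tested genes of 7 lists related to the 5 genes, each circle a gene, filled where the limma adjusted p is under 0.05; stars mark the 5 genes, which carry no test. Every star lies above all circles of its list, and the highest circle is Cpt1c at 0.77.

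The genes next to the 5 along the chromosomes were not used to choose them. Of the 3 nearest tested rows on each side of each gene and the rows overlapping them, 31 were tested and 0 passed limma's test in either direction, against 6.4% of all tested rows, with 5 at an unadjusted p under 0.05. Rac3 lies 577 bp from Dcxr and held 4.83 ± 1.22 TPM in cKO and 4.10 ± 0.518 in control (SD, n = 4, limma adjusted p = 0.508). Rap1a lies 6418 bp from Inka2 (34.4 ± 1.20 and 36.3 ± 2.04 TPM, SD, n = 4, limma adjusted p = 0.463). At lower coordinates Gm2614 was the nearest to Dglucy (-0.22) and Ddx20 to Inka2 (-0.03), and at higher coordinates Hmga1b was the nearest to Dcxr (-0.30). Ano3 and Gria3 have wider surroundings: the nearest tested rows were Ccdc34 at 479539 bp (-0.23, limma adjusted p = 0.0553) and Gm52523 at 1278432 bp (-0.24) for Ano3, and Thoc2 at 116391 bp (0.06) and Gm14567 at 2430592 bp (-0.82, limma adjusted p = 0.134) for Gria3.

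Some neighbours passed under an alternative, each with lower values in cKO. With all libraries kept, Ccdc34 and Hmga1b passed with a mean of at least 5 TPM (limma adjusted p = 0.0437 and 0.0494) and with array weights (limma adjusted p = 0.0428 and 0.0497). Without cKO replicate 4, Ccdc34 (-0.26, limma adjusted p = 0.0496) and Gm14567 (-1.08, limma adjusted p = 0.0407) passed, and without cKO replicate 3 Lgr4 near Ano3 (-0.35, limma adjusted p = 0.0473). Gm14567 also passed with the replicate number as a block (limma adjusted p = 0.0441). In the fits run, 0 neighbours were called higher. Muc15 lies within Ano3 on the opposite strand and stood at 0.0376 TPM in cKO and 0.0104 in control. Gm8482 overlaps 620 bp of Dglucy on the opposite strand and stood at 1.35 and 0.830 TPM (limma adjusted p = 0.281). Whether counting used the strand is not given in the sources used here, so reads of these pairs may not be separated.

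**Figure D5:**
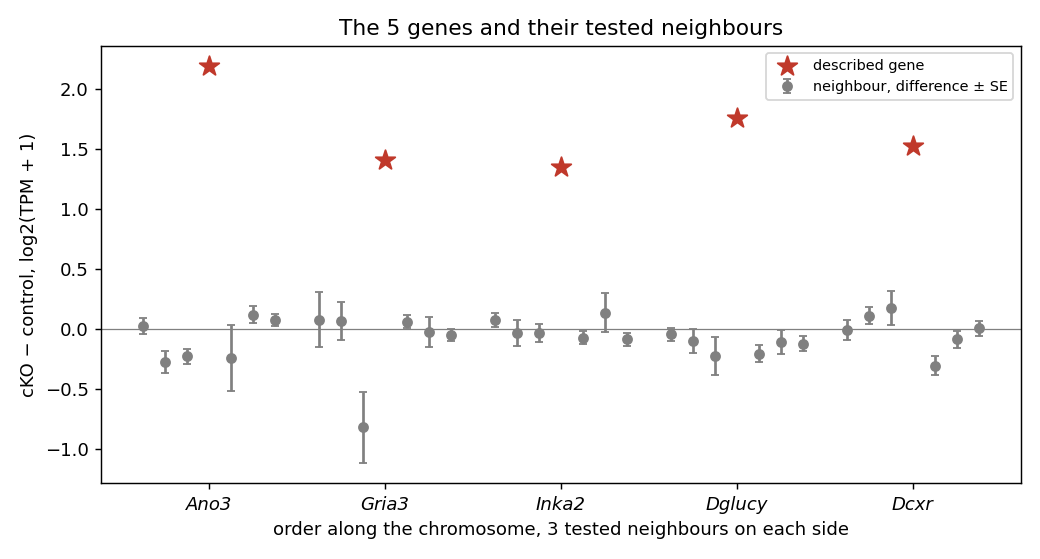
Difference between cKO and control means of log2(TPM + 1) (vertical axis) for the 5 genes (stars) and their 3 nearest tested neighbours on each side (circles, with limma's SE), in chromosomal order and not to scale. The neighbours lie between -0.82 and 0.18, below every star.

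Ano3 and Gria3 are known from neurons and the labels mention cortical neurons, so markers of neurons and of other cell types were summed in each library. The 20 neuronal markers summed to between 162 and 171 TPM in cKO and between 166 and 186 TPM in control, mostly from Camk2a (114 and 117 TPM) and Gap43 (30.4 and 36.3 TPM). Rbfox3, Dcx, Syt1 and Snap25 had means under 1 TPM in both groups, so the sum mostly follows Camk2a. Of 8 tested, 0 rose and 1 fell (12.5%, against 6.4% of all tested rows), Nefl (-0.50, limma adjusted p = 0.0219). Of the 8, 3 had a higher mean in cKO, among them Tubb3 (10.03 and 7.52 TPM, limma adjusted p = 0.331). Slc17a6, Neurod1 and Neurod6 were listed at 0 in all 8 libraries. The 13 autonomic neuron and glia markers summed to between 154 and 194 TPM in cKO and between 165 and 201 in control, mostly from Hand2, which ventricular cells also express. Of its 3 tested genes 0 passed limma's test, with 0 at an unadjusted p under 0.05. The part of neurons in the levels of Ano3 and Gria3 was not tested.

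Dcxr is abundant in kidney and liver, and 13 hepatocyte and kidney markers were summed in the same way. They reached 22.3 TPM in cKO replicate 1, against 6.50 to 7.65 in the other cKO libraries and 4.58 to 6.85 in control. The fetal liver protein gene Afp stood at 9.92 TPM in cKO replicate 1 and at 0.142, 0.469 and 0.252 TPM in cKO replicates 2 to 4. It was listed at 0 in control replicates 1, 3 and 4 and at 0.0792 TPM in control replicate 2, so all 4 cKO libraries were above all control libraries (limma adjusted p = 0.307). Of 3 tested genes 0 passed limma's test, with 0 at an unadjusted p under 0.05, and Fgb, Slc34a1 and Umod were listed at 0 in all 8 libraries. Without cKO replicate 1 the difference was 1.52 for Dcxr and 1.70 for Dglucy (1.53 and 1.76 with it). The part of such cells in the levels of the 5 genes was not tested.

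Mesenchymal and epicardial markers moved with the groups. The 11 mesenchymal markers summed to between 1255 and 1397 TPM in cKO and between 905 and 1093 in control, and 4 rose by limma's test (Col1a2, Col3a1, Dcn and Pdgfra, by 0.40 to 0.68) with 0 lower. The 11 epicardial markers summed to between 465 and 574 TPM in cKO and between 394 and 458 in control, and 5 rose (Wt1, Tbx18, Tcf21, Upk3b and Gpm6a, by 0.30 to 0.52). Over all tested rows 2.16% rose and 4.23% fell. Among the cKO libraries only, the mesenchymal, epicardial, erythroid, and hepatocyte and kidney sums were highest in replicate 1. In the same comparison the cardiomyocyte and macrophage sums were highest in replicate 2, and the autonomic neuron and glia sum in replicate 4. Over all 8 libraries the erythroid sum was highest in control replicate 4 (7292 TPM) and the cardiomyocyte sum in control replicate 2 (62084 TPM). The autonomic neuron and glia sum was highest in control replicate 1 (201 TPM). The atrial, neuronal, and endocardial and endothelial sums were highest in replicate 3 among the cKO libraries, as the 5 genes were. Over all 8 libraries the neuronal sum was highest in control replicate 1 (186 TPM). The part of any of these cell types in the levels of the 5 genes was not tested. Of 12 endocardial and endothelial markers 0 passed limma's test (5 at an unadjusted p under 0.05, sums of 966 to 1091 TPM in cKO and 912 to 976 in control). Of 8 tested macrophage markers 0 passed (1 at an unadjusted p under 0.05, sums of 21.6 to 45.7 TPM and 21.7 to 35.7 TPM), and of 11 erythroid markers 0 passed (1 at an unadjusted p under 0.05, sums of 1818 to 3830 TPM and 2019 to 7292 TPM). The 20 cardiomyocyte markers were all present, with sums of 56949 to 59885 TPM in cKO and 57053 to 62084 in control, and among them Nppb rose (0.54) and Nkx2-5 (-0.48), Tbx5 (-0.24) and Irx4 (-0.35) fell. The 8 atrial markers summed to between 12947 and 15071 TPM in cKO and between 12465 and 13101 in control. Of 7 tested atrial markers 0 rose and 1, Angpt1, fell (-0.40).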

How the data were processed

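RNA from 8 ventricle samples was analysed from 1 table of TPM values that the authors deposited, with 1 column a library. Per the submitters' processing notes the tools were FastQC, Trim Galore 0.6.7, HISAT2 2.2.1, StringTie 2.2.1, featureCounts and DESeq2, with the build GRCm38; which tool gave the TPM, the annotation and the strand setting are not given in the sources used here. TPM keeps no depth, so no counting error could be given. Groups and replicate numbers came from the titles.

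The log2(TPM + 1) values were fitted with limma 3.58.1 under R 4.3.3 (lmFit, eBayes with trend, two-sided) on 15541 rows with a mean of at least 1 TPM, with Benjamini-Hochberg adjustment over all of them and a threshold of 0.05. The procedure was tested on simulated data. A symbol with several rows took its most abundant row on a primary chromosome, and older symbols were matched through RefSeq. The 5 genes, the 8 gene lists, the 10 marker lists and the tests were chosen with earlier results of these data known. Besides the 5 genes, the text names list genes and neighbours past the threshold (at most 8 a list), the 3 most abundant genes of a list, the nearest neighbours, the genes of most similar pattern (5 over all libraries and 3 within groups, predicted genes left out) and the 4 rows on each side of 1.3; paralogs, direct partners and other genes were named after their values were seen. Some items the rule covers are not reported here. The p-values measure the spread between these samples, whose separate origin is given only as biological replicates. Alternatives were other pseudocounts, filters, scalings and weights, no trend, a replicate block and leaving out each library.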

Additional observations from a re-analysis of the deposited data

Results flagged for a closer look

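In the 108 groups of 4 libraries examined for a library far from the others, 6 had one by Dixon's criterion at the 95% level, and chance flags about 1 in 20 groups. Gria3 in control replicate 1 stood at 6.56 TPM, while the other control libraries lay between 7.78 and 7.98 TPM. The summed hepatocyte and kidney markers stood at 22.3 TPM in cKO replicate 1, above 6.50 to 7.65 TPM in the other cKO libraries. The summed mesenchymal markers stood at 905 TPM in control replicate 2, below 1061 to 1093 TPM in the other control libraries. Hsd17b4 stood at 69.98 TPM in control replicate 3, below 78.1 to 78.6 TPM in the others. Ano10 stood at 29.4 TPM in control replicate 3, above 28.01 to 28.2 TPM in the others. Rac3 stood at 4.87 TPM in control replicate 2, above 3.79 to 3.88 TPM in the others.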

How the results depend on the processing

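The differences of the 5 genes kept their direction under the alternatives run. Under scaling, weights, the replicate block and leaving out a library each stayed above 1.3. Leaving out single libraries gave 2.10 to 2.27 for Ano3, 1.32 to 1.48 for Gria3, 1.32 to 1.38 for Inka2, 1.598 to 1.89 for Dglucy and 1.44 to 1.59 for Dcxr. With a pseudocount of 0.1 the differences were 3.32 for Ano3, 1.54 for Inka2, 2.15 for Dglucy and 1.80 for Dcxr. With 5 they were 0.99, 1.09 for Gria3, 0.89, 1.02 and 0.93, so the 1.3 that chose the genes depends on the pseudocount.

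Over all tested rows 336 were higher and 658 lower. Without a filter on low values this was 140 and 207, and with the replicate block 179 and 241. The replicate numbers were not taken as pairs in the main fit. Deviations of same-numbered libraries correlated between -0.0891 and 0.0674. For 2 of 4 cKO libraries the control library of the same number gave the highest r. Whether the numbers pair the libraries is not settled by these values. Lower calls were 380 after quantile normalization, 396 after rescaling without mitochondrial and globin genes and 371 without a trend. Leaving out single libraries gave 153 to 339 higher and 228 to 597 lower.

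Anoctamins had 1 higher after quantile normalization. The AMPA receptor list had 1 lower with array weights, and 0 to 1 without single libraries. The Inka1 and PAK list had 0 lower with no filter, quantile normalization, rescaling, no trend and the replicate block, 0 to 1 without single libraries, and 1 higher with no trend and with array weights. The D-amino acid and glutamate list had 0 lower with no filter and 1 higher (Glul) with a pseudocount of 5, a mean of at least 5 TPM, each scaling and array weights. Without single libraries it had 0 to 3 lower and 0 to 1 higher. The uronate list had 0 to 1 lower without single libraries. The carbonyl reductases had 0 higher with no filter and with the replicate block, and 0 to 1 without single libraries. Neighbours had 2 lower with a mean of at least 5 TPM and with array weights, 1 with the replicate block, and 0 to 2 without single libraries. Of the p53 targets 19 were higher with no filter, 21 with a mean of at least 5 TPM or the replicate block, and 21 to 24 without single libraries, and Rps19bp1 kept its call. Marker lists were not refitted under the alternatives. The causes of these changes were not tested. Depth is unknown, so what it limits could not be stated.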
